A study of Mus musculus with 8 samples.

Results

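Weak peaks are the regions that a chromatin accessibility table lists at the edge of detection, and they are usually dropped before testing. They were taken here as every autosomal peak whose counts, summed over 8 libraries, came to at most 60. The rule was met by 43761 of 126871 deposited peaks, or 35.4% of the autosomal peaks. Together they held 4.06% of all counts. The members were chosen by their summed counts, so levels, widths and zeros of weak against other peaks are a description with no test. The sum did not use the division into old and young libraries, which the comparisons concern.

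The libraries are bulk ATAC-seq of hematopoietic stem cells (HSCs) from the bone marrow of C57BL/6 mice, 4 labelled old and 4 labelled young. Cells of both groups were sorted as LSK CD150+ CD48-, a gate on lineage-negative marrow cells that carry Sca-1 and Kit and differ in a pair of SLAM-family surface markers. No genotype or treatment is given, and ages, sexes and the number or pooling of mice are not stated in the labels, so the spread that p-values rest on is that of the 8 samples and may be technical. Age and whatever else may differ between both sets of libraries cannot be told apart. Cell identity was not checked against marker genes, because the peak table pairs no peak with a gene and no annotation of its build, mm9, was used here.

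In ATAC-seq a transposase cuts DNA that is free of nucleosomes and leaves sequencing adapters there, so read counts over a region follow how accessible it is. HSCs sustain all blood lineages, and ageing of the HSC pool is known for more phenotypic stem cells, weaker reconstitution and output skewed to myeloid cells. A weak peak in a bulk library may be a site that is slightly accessible in most cells or fully open in a few. These cases cannot be told apart from bulk counts, and whether each weak peak is an accessible site at all was not tested.

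Library totals ran from 4200905 to 5129684 counts and did not separate the groups (two-sided exact permutation p = 0.686, n = 4 each). One library, old replicate 4, lay between the groups at weak peaks as it does elsewhere. Its mean correlation of log2 CPM (counts scaled to library size) across weak peaks was 0.25 with the other old libraries, against 0.49 among those 3 and 0.19 with the young ones. Values without it are given beside some of the shares that follow. Shares split by strength, sum, width or distance are given with all 8 libraries only. Among other autosomal peaks the mean correlation among old replicates 1 to 3 was 0.95. The cap on the sum narrows the range of levels among weak peaks, which lowers any correlation across them.

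Weak peaks were narrow. Their median width was 266 bases, with quartiles of 222 and 321, against 578 bases for the 79732 other autosomal peaks. At 200 bases, the smallest width in the table, there were 4246 weak peaks and 250 others. At most 300 bases wide were 67.2% of weak peaks and 9.15% of the others. They covered 18.7% of the bases in autosomal peaks. Per length they were also lower, with a median of 117 counts per 1000 bases over all libraries against 375 in the others.

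**Figure D1:**
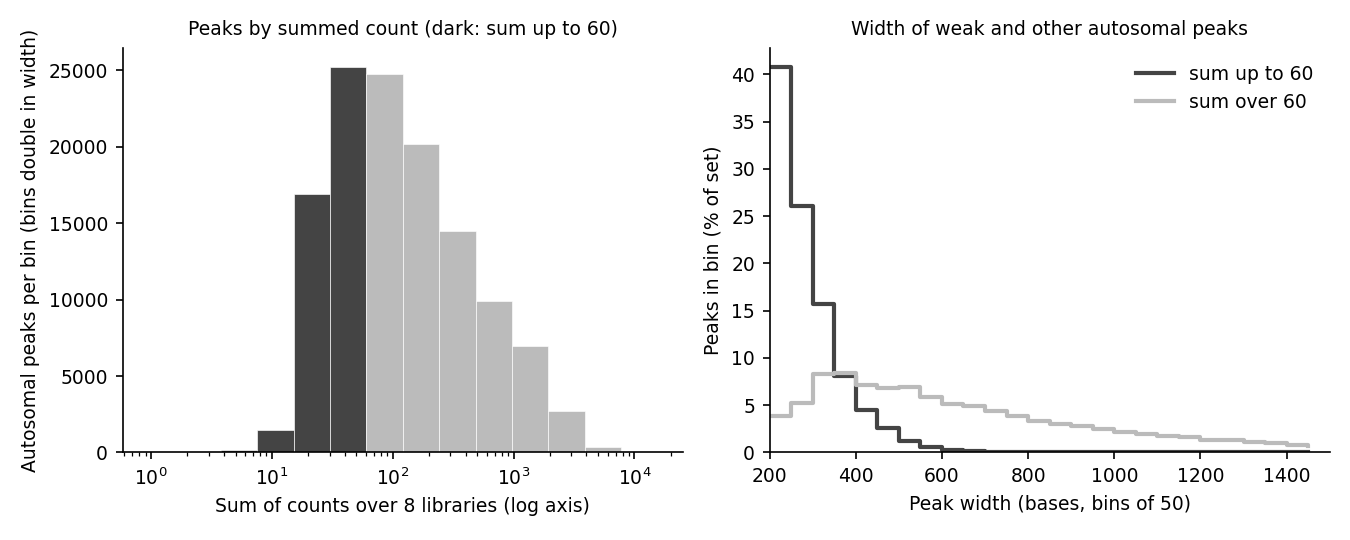
Left, number of autosomal peaks by summed count over 8 libraries, on a log axis with bins that double in width, with dark bars for sums up to 60. Right, share of weak and of other autosomal peaks by width in bins of 50 bases up to 1500 bases: weak peaks crowd near 200 bases (median 266), other peaks spread out (median 578).

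Sums ran from 1 to 60 with a median of 34 and quartiles of 25 and 45. Only 1651 weak peaks had 15 counts or fewer, while 16884 had 16 to 30, 14586 had 31 to 45 and 10640 had 46 to 60. Wider weak peaks held more counts (Spearman rho = 0.61 across 43761 peaks, which share libraries and are not replicates). The limit of 60 falls within a continuous distribution. The 623 peaks with a sum of exactly 60 had a median width of 341 bases and 1.04% zero values, and the 629 with 61 had 347 bases and 1.07%.

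The extremes show how little lies behind the weakest entries. A peak at 109959672 to 109959871 on chromosome 4 (mm9) held 1 count, in old replicate 2. The peaks on chromosome 13 from 85695557 to 85695756 and from 102637329 to 102637534 also held 1 count each, in old replicate 2 and in young replicate 2. All 3 are 200 or 206 bases wide and lie 40 to 85 bases from another deposited peak. The widest weak peak, on chromosome 1 from 78306379 to 78307345, spans 967 bases and lies 43 bases from its neighbour. Its counts were 4, 14, 17 and 9 in old replicates 1 to 4 and 3, 5, 5 and 2 in young replicates 1 to 4. One old library lay within the young range there, and the peak was called higher in old cells with all libraries (edgeR adjusted p = 0.0262) but not in every fit that left out 1 library (highest adjusted p = 0.136). The next widest, on chromosome 9 from 23952512 to 23953372 and on chromosome 15 from 83081233 to 83082050, were not called. The first 3 weak peaks of the smallest width lie on chromosome 1 and start at 3140781, 4506749 and 4633346. They held 22, 20 and 12 counts, and none was called.

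The label of weak peaks below usual filters refers to filters that act on the same counts as the limit of 60. How few weak peaks pass was therefore largely set by that limit and is no independent check. The filter of edgeR, filterByExpr by group with a minimum count of 10, passed 65 weak peaks, or 0.149%, and 89.7% of the other autosomal peaks. Weak peaks made up 84.2% of the 51895 autosomal peaks that failed it, and another 8199 failed with sums above 60. A peak this weak passes only if at least 4 of the 8 libraries, of either group, reach the minimum count scaled to library size. With a sum of at most 60 this is easier when 1 group holds most of the counts. Calls among those 65 thus partly describe the filter and are not used as support.

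Counts of 0 were uncommon even here. Of the values of 43761 peaks in 8 libraries, 6.24% were 0, against 0.157% in other autosomal peaks. A count was present in all 8 libraries at 28919 weak peaks, or 66.1%, and exactly 1 library was at 0 at a further 9850. Exactly 4 libraries were at 0 at 314 weak peaks, and 5, 6 and 7 libraries at 52, 13 and 4. Zero values fell from 26.6% among sums of 1 to 15 to 1.46% among sums of 46 to 60. All 4 young libraries were at 0 at 116 weak peaks, with sums up to 59, and all 4 old libraries at 35, with sums up to 28.

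The share of weak peaks at 0 did not separate the groups. It was 8.96%, 7.12%, 8.08% and 3.70% in old replicates 1 to 4 and 5.75%, 4.24%, 6.70% and 5.36% in young replicates 1 to 4. Old replicate 4, the most deeply counted library, had the lowest share of all. The means were 6.96 ± 2.31% in old and 5.51 ± 1.02% in young libraries (n = 4 each, SD; exact two-sided permutation p = 0.314). Thinned to the smallest library total, the expected shares were 8.51 ± 1.82% and 6.54 ± 0.432% (exact permutation p = 0.143), and old replicate 4 at 5.82% remained below every young library. Without it the difference as counted moved from 1.45 to 2.54 percentage points (exact permutation p = 0.0571), and without old replicate 1 to 0.784 (exact permutation p = 0.600).

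Weak peaks took a smaller part of the counts in old than in young libraries. They held 3.70%, 3.71%, 3.90% and 3.99% of the counts in old replicates 1 to 4 and 4.34%, 4.18%, 4.26% and 4.38% in young replicates 1 to 4. Every old library lay below every young one, and old replicate 4 was the highest of the old. The difference was -0.466 percentage points with it and -0.520 without it. The means were 3.82 ± 0.142% and 4.29 ± 0.0870% (SD, n = 4 each; exact permutation p = 0.0286, two-sided, and no smaller p can come from 70 assignments). The widest 95% Wilson interval of a single share reached 0.0192 percentage points to either side, which covers counting error only. Pooled, old libraries held 730193 and young libraries 799277 weak-peak counts, a ratio of 0.893 per library total. The strongest 1% of all peaks moved the other way in the same libraries, with 12.4 ± 0.225% of counts in old and 11.9 ± 0.171% in young. Its part in the result was not tested.

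**Figure D2:**
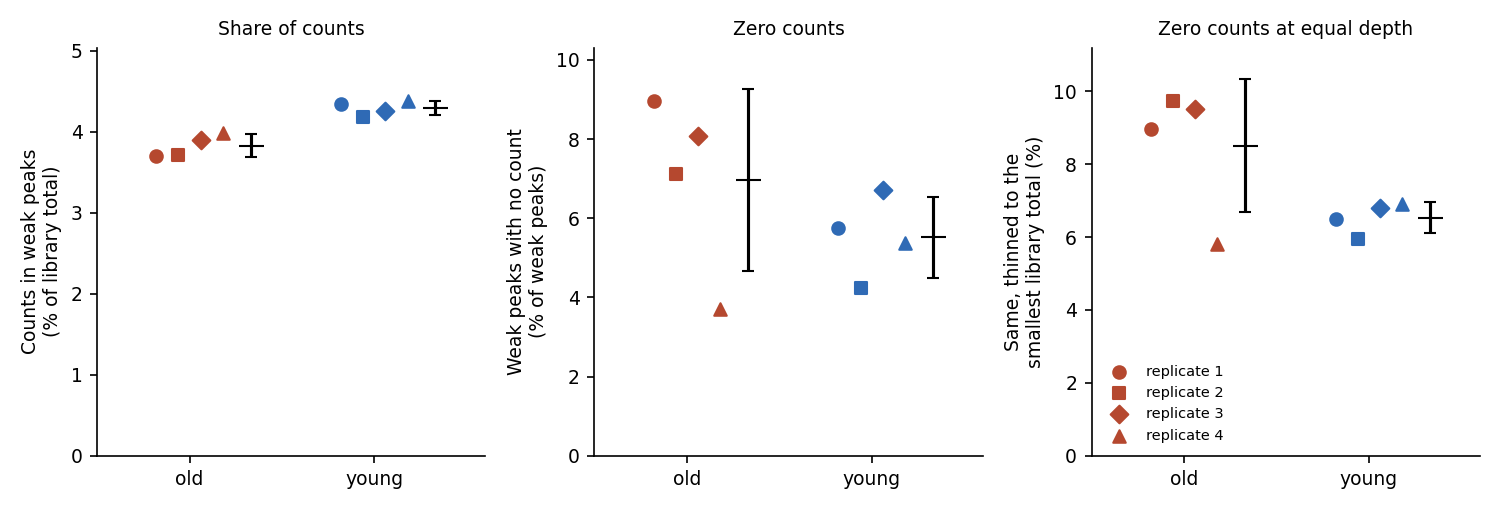
Per-library share of counts in weak peaks (left), share of weak peaks with a count of 0 (middle) and the latter after thinning to the smallest library total (right). Each symbol is 1 library, bars are mean ± SD over 4, and all axes start at 0. Old libraries lie at 3.70% to 3.99% and young ones at 4.18% to 4.38% on the left, while old replicate 4 is the lowest library in the other panels.

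The shift was graded along peak strength. The ratio of the old to the young mean share was 0.891 for sums up to 60, 0.930 for those above it up to 100, 0.961 from there to 200, 0.975 from there to 500 and 1.02 for sums over 500. In each of these 5 classes the groups did not overlap (two-sided exact permutation p = 0.0286, also after adjustment over the 5). Shares of a total constrain each other, so these tests are not independent. Inside the weak peaks the ratio was 0.903 for sums of 1 to 15, 0.862 for 16 to 30, 0.889 for 31 to 45 and 0.915 for 46 to 60. The lowest class did not have the lowest ratio.

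Weak peaks were also split by width and by spacing. Those of exactly 200 bases held 6.16 ± 0.107% of weak-peak counts in old and 6.37 ± 0.0571% in young libraries, and those over 300 bases 41.9 ± 0.327% and 40.8 ± 0.196% (SD, n = 4 each; exact permutation p = 0.0286 for both, 0.0381 adjusted over 4 width classes). The groups did not overlap in either class. The 618 weak peaks over 100000 bases from any other peak held 1.67 ± 0.156% in old and 1.02 ± 0.0616% in young libraries (exact permutation p = 0.0286, 0.0571 adjusted over 4 distance classes). In these isolated sites old counts exceeded young ones, with 12166 pooled old and 8144 pooled young counts, a log2 ratio of 0.55 per library total. Weak peaks more than 1000 and at most 10000 bases from a neighbour held 48.7 ± 0.903% in old and 51.6 ± 0.339% in young (exact permutation p = 0.0286, 0.0571 adjusted). No distance class passed after adjustment.

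Weak peaks were spread over every autosome, from 1234 on chromosome 19 to 3519 on chromosome 2. They made up 30.9% of the peaks of chromosome 11, the lowest share, and 39.1% of those of chromosome 1, the highest. The nearest deposited peak lay a median of 3716 bases away, against 2712 for other autosomal peaks. A neighbour within 1000 bases was as common in both sets, at 29.2%. Weak peaks had a median of 38 other peaks within 250000 bases, the others 46. The next peak along the chromosome was also weak for 43.7% of weak peaks and for 30.9% of others. They formed 24661 runs, of which 14325 were single peaks and 36 held 10 or more.

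The longest run held 17 consecutive weak peaks on chromosome 7 from 7749784 to 9028234. Its counts were 82, 80, 83 and 78 in old replicates 1 to 4 and 28, 68, 46 and 104 in young replicates 1 to 4. The old libraries were nearly level, and the young ones spanned the old values. That makes 17.4 ± 2.21 CPM for old against 12.7 ± 6.17 CPM for young libraries (n = 4 each, SD; exact two-sided permutation p = 0.229), and none of its 17 peaks was called.

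Weak-peak counts also shifted with local peak number. Autosomal peaks were split into quintiles by how many others were listed within 250000 bases, at most 25 in the peak-poor quintile and more than 61 in the densest. Weak peaks made up 48.6% of the peak-poor quintile, then 39.0%, 34.2% and 30.5%, and 24.1% of the densest. Their median width ranged only from 258 to 270 bases over the 5 quintiles.

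The peak-poor quintile held 30.04%, 30.9%, 30.8% and 25.7% of weak-peak counts in old replicates 1 to 4 and 23.8%, 24.9%, 24.3% and 22.9% in young replicates 1 to 4. All old libraries lay above all young ones, and old replicate 4 was less than 1 percentage point above the highest young library. The means were 29.4 ± 2.49% and 24.0 ± 0.818% (n = 4 each, SD; exact two-sided permutation p = 0.0286, 0.0714 adjusted over 5 quintiles). The adjusted test was not passed. Without old replicate 4 the difference went from 5.41 to 6.64 percentage points and the adjusted exact permutation p was 0.0357.

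Pooled peak-poor weak peaks held 213567 old and 191429 young counts, a log2 ratio of 0.29 relative to all weak peaks. The ratio was -0.03, -0.12, -0.15 and -0.15 in the following quintiles. In the third quintile the shares were 19.3 ± 0.577% in old and 21.1 ± 0.270% in young libraries, again without overlap. In the densest quintile they were 12.8 ± 1.18% and 14.2 ± 0.410%, and old replicate 4, at 14.5%, fell inside the range of young libraries. Per TMM library size the densest quintile held 4973 ± 538 CPM in old against 5985 ± 283 CPM in young libraries, and the peak-poor quintile 11436 ± 874 and 10084 ± 178 CPM (exact permutation p = 0.0571 for both, also adjusted over 5). The groups overlapped in both. Without old replicate 4 they did not, at 4707 ± 106 CPM in the densest and 11839 ± 420 CPM in the peak-poor quintile over 3 old libraries (exact permutation p = 0.0286, also adjusted over 5). The densest quintile's share was then 12.2 ± 0.270% in old libraries. With all 8 libraries, quintiles 2 to 4 per TMM library size were lower in old (adjusted exact permutation p = 0.0476 each). Per library total, quintiles 2 to 5 were lower in old (adjusted exact permutation p = 0.0357 each). The peak-poor quintile held 1.12 ± 0.0744% of library counts in old and 1.03 ± 0.0158% in young, with overlap (exact permutation p = 0.114). With all 8 libraries its gain thus separated the groups only as a share of weak-peak counts.

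Other autosomal peaks also had more of their counts there in old libraries. Their peak-poor share was 13.6 ± 0.535% in old and 12.5 ± 0.200% in young libraries. To test the difference itself, the log2 peak-poor share of other peaks was subtracted from that of weak peaks in each library. This contrast was 1.11 ± 0.07 in old and 0.94 ± 0.03 in young libraries, a difference of 0.17 (n = 4 each, SD; exact two-sided permutation p = 0.0286, 0.0476 adjusted over 5 quintiles). It was 0.20 without old replicate 4. With any 1 young library left out the difference was 0.16 to 0.18 and the exact permutation p was 0.0571.

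**Figure D3:**
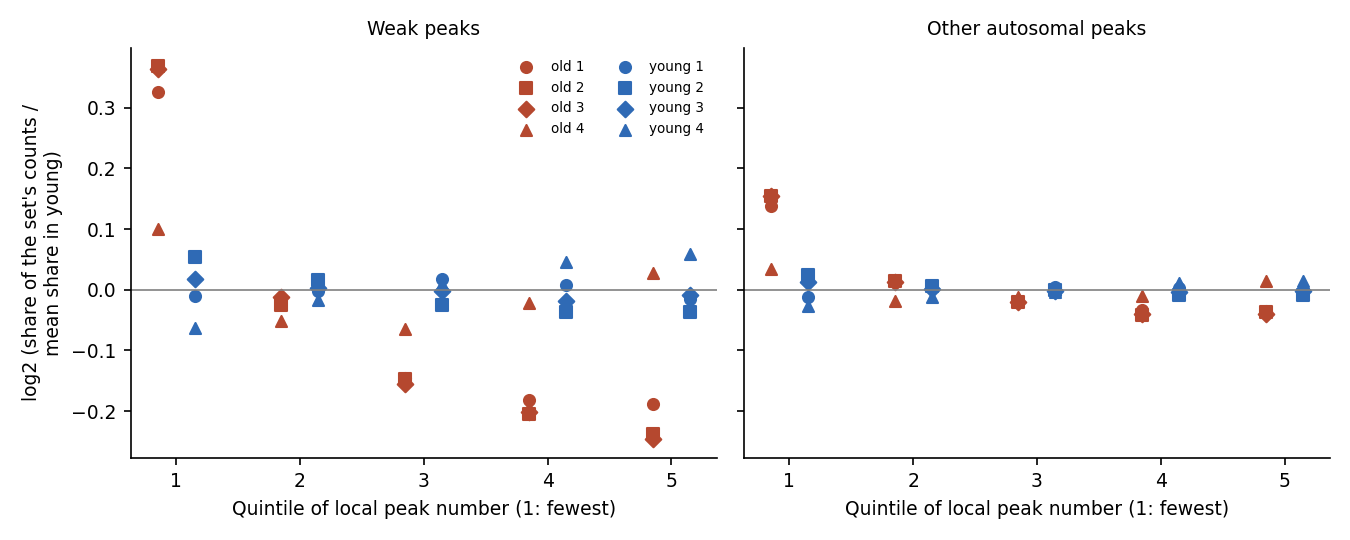
Share of counts by quintile of local peak number in each library, as log2 relative to the mean share in young libraries, for weak peaks (left) and other autosomal peaks (right) on 1 scale. Red symbols are old and blue symbols young libraries. Pooled log2 ratios run from 0.29 to -0.15 for weak peaks and from 0.12 to -0.03 for the others, and old replicate 4 (red triangles) lies nearer the young libraries than the other old ones.

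The shift was present in each class of sums. The peak-poor share was 30.8 ± 3.35% in old and 23.2 ± 1.74% in young libraries for sums of 1 to 15, and 25.4 ± 2.22% and 20.8 ± 0.589% for sums of 46 to 60. In all 4 classes the groups did not overlap (exact permutation p = 0.0286, also adjusted over 4). By chromosome, the mean peak-poor share of weak-peak counts was higher in old libraries on all 19 autosomes, and the groups were separate on 16 of them (adjusted exact permutation p under the threshold of 0.05 on those 16). The exceptions were chromosomes 15, 17 and 19. These splits by sum and chromosome divide the same counts of the same 8 libraries, so they are not independent tests. They do not add to the test over all weak peaks, where the adjusted exact permutation p was 0.0714. Values without old replicate 4, and the split of other autosomal peaks by chromosome, are not given for them. On chromosome 8 the share was 29.7% in old and 22.3% in young, and on chromosome 19 it was 17.9% and 16.9% (two-sided exact permutation p = 0.286, n = 4 each).

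Pooled counts differed little by chromosome once the total over weak peaks was taken out. The share of weak-peak counts was free of overlap between groups on 6 of 19 autosomes, or 31.6%, against 36.8% for other autosomal peaks. It was higher in old libraries on chromosomes 4, 8 and 12 and lower on chromosomes 10, 17 and 19. Each reached an exact permutation p of 0.0286, and none passed after adjustment over 19 (0.0905). On chromosome 8, the largest gain, the share was 4.94 ± 0.0843% in old and 4.66 ± 0.105% in young libraries. On chromosome 17 it was 4.19 ± 0.119% and 4.45 ± 0.0788%. Chromosome 12 had 4.78 ± 0.0601% and 4.65 ± 0.0548%. Without old replicate 4 the groups were apart on 8 autosomes, with chromosome 3 (5.81 ± 0.0839% in old, 5.59 ± 0.175% in young) and chromosome 11 (5.71 ± 0.0392% and 6.22 ± 0.148%) added. None passed after adjustment (smallest adjusted exact permutation p = 0.109).

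A model that pools the spread over chromosomes called 6 of 19 (31.6%) at an adjusted p below 0.05 (edgeR quasi-likelihood test on chromosome sums, library size set to the weak-peak total). Chromosome 8 was higher in old by 0.08 ± 0.02 on the log2 scale (SE; edgeR adjusted p = 0.00459) and chromosome 4 by 0.04 ± 0.01 (0.0427). Chromosome 11 was lower, at -0.09 ± 0.02 (edgeR adjusted p = 0.00596), as were chromosome 17 at -0.09 ± 0.02, chromosome 19 at -0.08 ± 0.02 and chromosome 10 at -0.05 ± 0.02. Scaled to all peaks by TMM instead, 18 of 19 autosomes were called lower and 0 higher. Chromosome 4 then turned to -0.07 ± 0.03 (SE; adjusted p = 0.0199 by edgeR) and chromosome 8 to -0.03 ± 0.04 (not called, 0.448), so their gains hold only relative to weak peaks as a whole. Without old replicate 1 the relative fit called 3, and without old replicate 4 it called 7.

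Set beside each other, other autosomal peaks had pooled log2 ratios of 0.02 on chromosome 8, 0.02 on chromosome 4, -0.02 on chromosome 11, -0.02 on chromosome 17 and -0.01 on chromosomes 10 and 19. The difference between weak and other peaks was tested per library in the same way as for peak-poor regions. It separated the groups on chromosomes 4, 8, 10, 13, 17 and 19 (exact permutation p = 0.0286) and did not pass after adjustment over 19 (0.0905). Chromosomes also differ in how many weak peaks lie in peak-poor regions. Giving each quintile its genome-wide ratio would put chromosome 11 at -0.06, chromosome 19 at -0.03, chromosome 17 at -0.02, chromosome 8 at -0.01, chromosome 10 at -0.00 and chromosome 4 at 0.01 on the log2 scale. The part of this makeup in the chromosome values was not tested.

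**Figure D4:**
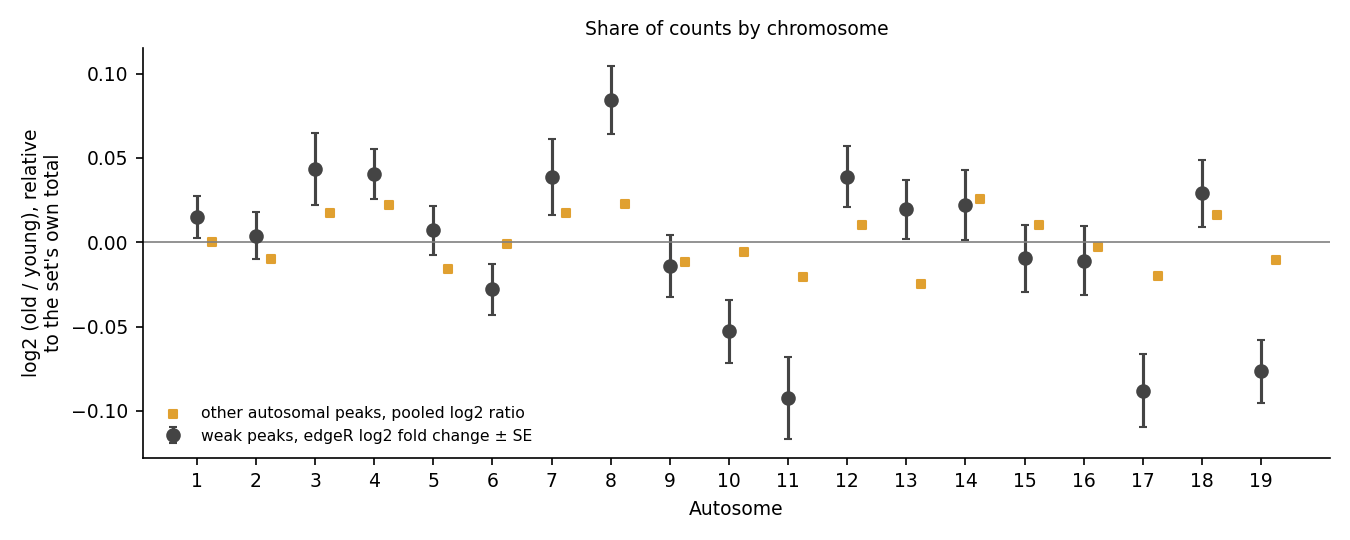
Old against young counts on each autosome, as log2 relative to the set's own total. Circles are weak peaks (edgeR log2 fold change, bars ± SE, 8 libraries) and squares are pooled ratios of other autosomal peaks. Chromosome 8 stands highest at 0.08, and chromosomes 11, 17 and 19 lowest at -0.09 to -0.08.

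Although the usual filter removes them, single weak peaks were tested in a fit of all 126871 peaks with no filter. Of the 43761 weak peaks, 1994 were called higher and 2319 lower in old HSCs (edgeR quasi-likelihood test, adjusted over all peaks), together 9.86%. Over all deposited peaks 16.1% were called, 8.46% higher and 7.69% lower, beside 4.56% and 5.30% of weak peaks. The share among weak peaks was below this background in both directions. DESeq2 called 847 higher and 635 lower, which turns the balance of directions. Without old replicate 4 edgeR called 2718 and 3920. Calls that held in each fit with 1 library left out numbered 862 higher and 671 lower. A simulated table changed 50 weak peaks of at least 40 counts by each of several folds. The test found 2% of those changed 2-fold, 28% of the 3-fold, 76% of the 4-fold and 100% of the 8-fold set. The real fit made many more calls, which makes the adjusted threshold less strict, so the real detection rate was not measured.

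In CPM, every old library exceeded every young one at 2469 weak peaks and fell below every young one at 3522, together 13.7%. Over all deposited peaks these shares were 9.30% and 8.92%, together 18.2%. The median log2 fold change over all weak peaks was -0.15, and 0.01 over all deposited peaks. With DESeq2 size factors these were -0.17 and -0.01, and with total counts -0.21 and -0.05. The smallest fitted change that was called was 1.21 on the log2 scale upward and -1.22 downward. Calls grew with the sum, from 2.97% of weak peaks with 1 to 15 counts to 13.2% of those with 46 to 60. The smallest upward change called was 3.07 in the former class and 1.21 in the latter. These rates thus do not compare how often peaks of each class change.

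Gains and losses were also counted by local peak number. In the peak-poor quintile 1054 weak peaks were called higher and 436 lower of 11993, so gains made up 70.7% of calls. Those were 8.79% and 3.64% of the weak peaks there, beside 18.3% and 6.87% of other autosomal peaks in that quintile. Over all deposited peaks gains made up 52.4% of calls. In the next quintiles of weak peaks gains were 40.5%, 30.7% and 29.9%, and in the densest 28.1%, with 130 higher and 333 lower of 5672. Other autosomal peaks had 72.7% gains among calls in the peak-poor quintile, then 53.0%, 48.8%, 46.4% and 48.9%. The balance in peak-poor regions was thus near that of weak peaks, and the difference between both sets of calls was not tested. The median log2 fold change of all weak peaks went from 0.13 in the peak-poor quintile to -0.30 in the densest. For other autosomal peaks it went from 0.17 to 0.01. Of 104 weak peaks that were called higher with no count in any young library, 91 lay in the peak-poor quintile. There were 27 called lower with no count in any old library, 4 of them in that quintile. It held 27.4% of all weak peaks and 1054 of the 1994 weak peaks called higher. Among other autosomal peaks 8 were called higher with no young count, and all 8 lay in the peak-poor quintile.

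The 5 weak peaks with the smallest p among gains were near or at 0 in young libraries. At chromosome 5, the peak from 70754994 to 70755465 (472 bases) held 12, 13, 13 and 18 counts in old replicates 1 to 4 and 0 in every young library. It was at least 18.9-fold higher in old libraries, taking 3 counts over the young group as the floor (edgeR adjusted p = 3.92e-06). Old replicate 4 had the most counts there, and only 2 other peaks lay within 250000 bases. A peak of 300 bases on chromosome 3, from 66150945 to 66151244, held 10, 21, 16 and 10 counts in old libraries and 0 in every young one, at least 19.3-fold higher (edgeR adjusted p = 6.78e-06). From 13833687 to 13834103 on chromosome 14, a peak of 417 bases held 14, 21, 16 and 8 in old and 0 in young libraries, at least 19.9-fold higher (edgeR adjusted p = 6.93e-06). At these 3 peaks counts were present in all old libraries and not detected in any young one at this depth.

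On chromosome 19, the peak from 37149176 to 37149576 held 11, 17, 11 and 19 counts in old replicates 1 to 4, and 1 count in young replicate 2 was the sole young count. It reached 3.06 ± 0.601 CPM in old against 0.0490 ± 0.0980 CPM in young libraries, a fitted log2 difference of 5.30 ± 0.67 (SE; adjusted p = 5.03e-06 by edgeR). On chromosome 16 the peak from 60604881 to 60605447 held 16, 13, 11 and 13 counts in old libraries and 1 in young replicate 3 alone, with a log2 fold change of 5.18 ± 0.70. It lies 247 bases from another peak, while the other 4 lie 14760 to 197215 bases from theirs. The choice required that old and young libraries not overlap, so old replicate 4 was on the old side at each of the 5.

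The 5 weak peaks with the smallest p among losses kept 1 to 5 counts over the old libraries. Between 108467549 and 108467947 on chromosome 6, a peak held 15, 9, 15 and 15 counts in young replicates 1 to 4 and 0, 0, 1 and 1 in old replicates 1 to 4. It was at -4.44 ± 0.64 on the log2 scale (SE; edgeR adjusted p = 2.42e-05). Chromosome 18 had a peak from 35222967 to 35223296 with 12, 8, 10 and 19 counts in young libraries and 1 in old replicate 4 alone. Chromosome 11 had one from 53028295 to 53028782 with 10, 14, 8 and 15 in young and 1, 1, 0 and 0 in old ones. Also on chromosome 11, the peak from 114792470 to 114792893 held 13, 6, 9 and 16 in young libraries and 1 count in old replicate 1. Chromosome 2 had a peak from 125620859 to 125621176 with 12, 9, 18 and 16 in young and 1, 2, 1 and 1 in old ones, at -3.33 ± 0.52 (log2 fold change, SE). Old replicate 4 held at most 1 count at each of the 5, where the choice required it to lie below every young library in CPM. These losses lie among 36 to 72 other peaks within 250000 bases, the gains among 2 to 36.

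**Figure D5:**
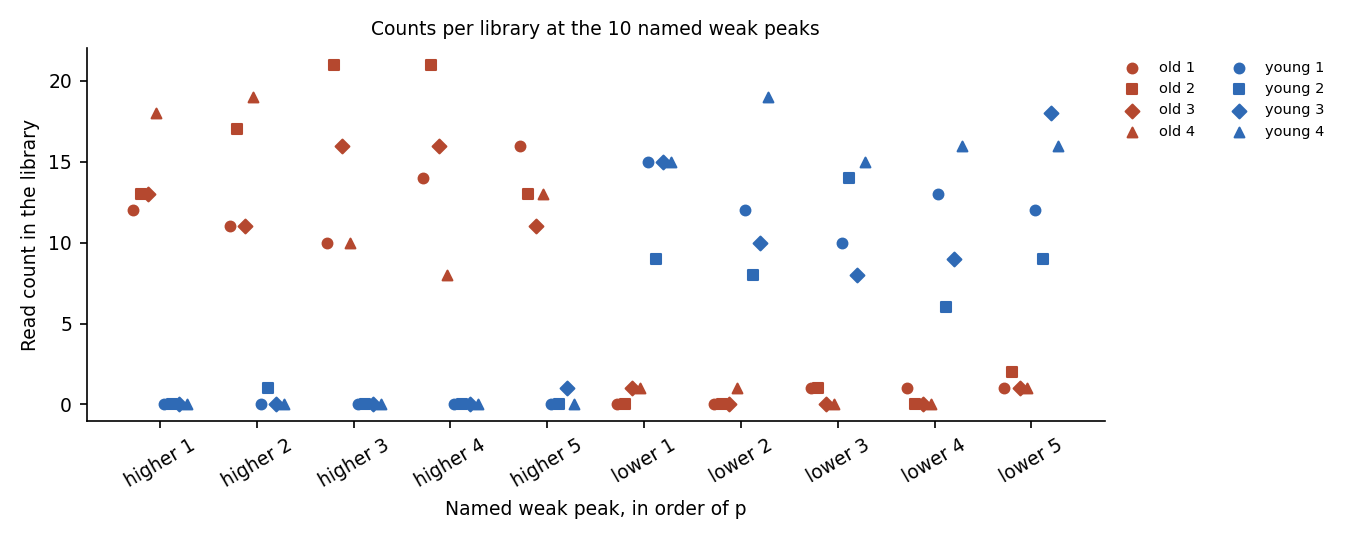
Read counts in each library at the 10 named weak peaks, 5 called higher and 5 called lower in old HSCs, in order of p. Red symbols are old and blue symbols young libraries, and symbol shape gives the replicate. Gains hold 8 to 21 counts in each old library and at most 1 in any young one.

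Summed over windows of 1000000 bases, weak peaks held enough counts for changes to be seen by region. Of 2349 windows with weak peaks 2198 were tested, with a median of 20 weak peaks and 682.5 counts. Old HSCs were higher in 329 windows and lower in 302 (edgeR quasi-likelihood test, adjusted p below 0.05), that is 15.0% and 13.7%, together 28.7%. Of 2280 windows tested on other autosomal peaks 39.0% were called. In the 2146 windows tested on both, 28.6% were called from weak and 38.6% from other peaks. TMM was computed on the windows, which centres weak peaks on themselves. With library sizes from all peaks the split was 274 higher and 456 lower.

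The window with the smallest p lay on chromosome 14 from 29000001 to 30000000 and held 11 weak peaks among 20. Their summed counts were 83, 89, 93 and 74 in old replicates 1 to 4 and 13, 26, 16 and 23 in young replicates 1 to 4. Old libraries all lay above the young ones, and 8 of the 11 were called higher and 0 lower. It was higher by 2.22 ± 0.20 on the log2 scale (SE; edgeR adjusted p = 1.09e-11), where other peaks of the window changed by 0.74. Windows named by p were picked on their weak-peak sums, and that choice favours larger changes at weak than at other peaks. Calls at their single weak peaks rest on the same counts. Changes at other peaks come from a separate fit with its own TMM scaling, so the 2 zero points may differ.

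On chromosome 7, the window from 70000001 to 71000000 held 108, 88, 107 and 87 weak-peak counts in old and 31, 27, 29 and 40 in young libraries, or 1.72 ± 0.18 on the log2 scale against 0.60 at its other peaks. The window from 77000001 to 78000000 on the same chromosome held 93, 104, 102 and 80 against 26, 30, 18 and 45, a log2 change of 1.77 ± 0.19 against 1.07. Among windows that were lower, chromosome 14 from 11000001 to 12000000 had 7, 11, 9 and 17 counts in old and 52, 49, 51 and 45 in young libraries, at -2.07 ± 0.27 (SE; edgeR adjusted p = 6.21e-08). Old replicate 4 had the most counts of the old libraries there. Its other peaks were lower by less, at -0.38.

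Chromosome 1 from 186000001 to 187000000 held 26 weak peaks with 54, 65, 58 and 89 counts in old and 121, 132, 122 and 162 in young libraries, at -0.92 ± 0.14 on the log2 scale. Chromosome 4 from 33000001 to 34000000 held 29, with 79, 81, 94 and 104 against 172, 170, 138 and 167 counts, at -0.76 ± 0.12. The other peaks of this window were at -0.06 and not called (edgeR adjusted p = 0.191). Whether weak and other peaks of a window differ was not tested for single windows.

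The 3 windows with most weak peaks showed smaller changes than the windows named by p, whose choice favours large changes. The most, 56, lay on chromosome 7 from 149000001 to 150000000, at a log2 change of -0.11 ± 0.11 (SE; adjusted p = 0.469 by edgeR). Chromosome 2 from 33000001 to 34000000 held 52 and was at -0.12 ± 0.12, also not called. Chromosome 1 from 133000001 to 134000000, with 52 as well, was lower at -0.41 ± 0.11 (edgeR adjusted p = 0.00598, at most 0.0416 with 1 library left out).

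Replicates spread more than counting error alone would give. The chi-square per degree of freedom within groups, where 1 is Poisson sampling, was 1.32 for weak and 1.80 for other autosomal peaks. A weak peak held 4.37 counts per library on average, against 55.6 for other autosomal peaks.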

How the data were processed

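Counts of reads per peak were deposited by the authors as whole numbers, not normalized, over 1 peak set common to all 8 samples. MACS2, Bowtie2, Picard, SAMtools, FastQC, Trim Galore and the build mm9 are named per the submitters' processing notes. How peaks were merged, reads counted or read ends shifted is not given in the sources used here, and peaks called on the compared libraries can favour sites open in either group. Widths count both end positions.

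From these counts, CPM with TMM scaling, shares of counts and edgeR 4.0.16 quasi-likelihood fits (R 4.3.3, robust for peaks and windows, group as the only term, Benjamini-Hochberg adjustment) were computed here; log2 CPM used a prior count of 2. DESeq2 1.42.0 was an alternative, beside other scalings, filters, limits of 30 and 100, a replicate block and each library left out. Shares were compared by two-sided exact permutation over 70 assignments. The splits by distance, width and sum class, and of the peak-poor share by chromosome, were added after values were seen. The fits were tested on simulated data: 3 of 126868 peaks and 0 of 2193 windows were called falsely. Simulated peaks were independent, with 1 common dispersion, no variation shared within a region and no library set apart. Window sums of such peaks spread less than sums with shared variation, so false calls in the real fits were not measured. Named peaks are, per direction, the 5 with the smallest p whose groups did not overlap in CPM, plus the 3 widest, narrowest and emptiest. Named windows are the 3 with the smallest p per direction and the 3 with most weak peaks. Members and lists were chosen with earlier results of these data known. No sequence of the mm9 build was used.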

Additional observations from a re-analysis of the deposited data

Results flagged for a closer look

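Each of 106 sets of 4 library values was searched for one lying far off the rest; 16 such cases were found, and about 1 in 20, or 5.3, would be by chance. Old replicate 4 stood apart in its peak-poor share of weak-peak counts (25.7%, the other old libraries 30.04% to 30.9%) and of other autosomal counts (12.8%, the others 13.7% to 13.9%). It also stood apart in its weak-peak share of the third quintile of local peak number (20.2%, the others 18.96% to 19.1%), of the fourth (17.5%, the others 15.4% to 15.6%), of chromosome 11 (6.19%, the others 5.68% to 5.75%) and of chromosome 18 (3.29%, the others 3.38%). Young replicate 1 was high on chromosome 10 (5.91%, the others 5.61% to 5.64%) and chromosome 19 (3.003%, the others 2.91%), and young replicate 4 was low on chromosome 3 (5.33%, the others 5.67% to 5.69%).

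At 4 named peaks a single count set 1 library apart from 3 at 0. These were young replicate 2 on chromosome 19 from 37149176 (0.196 CPM), young replicate 3 on chromosome 16 from 60604881 (0.235 CPM), old replicate 4 on chromosome 18 from 35222967 (0.195 CPM) and old replicate 1 on chromosome 11 from 114792470 (0.245 CPM). Old replicate 1 was high at the chromosome 16 peak (3.93 CPM, the others 2.42 to 2.62). In CPM of weak-peak counts, old replicate 2 was low in the window on chromosome 4 from 33000001 (423, the others 500.3 to 513), and young replicate 4 was high in that on chromosome 2 from 33000001 (1349, the others 1163 to 1191).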

How the results depend on the processing

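Of 148 values recomputed under alternatives, 111 kept their direction and side of the threshold or stayed within 1.5 times the count. With TMM over all peaks, which scales weak-peak counts by all peaks, chromosome 4 turned from 0.0405 to -0.0708 and chromosome 8 from 0.0841 to -0.0268 (log2). Losses outnumbered gains among weak peaks in the fit as reported. Gains outnumbered losses with DESeq2, at an adjusted p below 0.01, without old replicate 1, 2 or 3, and without young replicate 3 or 4. The 65 weak peaks that pass filterByExpr are not counted toward this, because the filter favours peaks with most counts in 1 group. The share of counts in weak peaks stayed lower in old libraries under each alternative run (-0.744 to -0.163 percentage points, exact permutation p = 0.0286). Weak peaks called higher and lower were 642 and 669 with a limit of 30, 3253 and 3919 with a limit of 100, 834 and 605 at an adjusted p below 0.01, 24 and 18 of the 65 that pass filterByExpr, and 847 and 635 with DESeq2. With 1 library left out they ranged from 1177 to 2718 higher and from 1170 to 3920 lower, both highest without old replicate 4. Without old replicate 1 they were 1351 and 1224, without old replicate 2 1296 and 1170, without old replicate 3 1177 and 1173. Losses were 1438 without young replicate 3 and 1332 without young replicate 4. Windows numbered 78 and 74 at 5000000 bases and 135 and 97 with a limit of 30; with all-peak library sizes 456 were lower. Left-out libraries gave 248 to 446 higher and 198 to 404 lower, with 198 lower without old replicate 2. Chromosomes called were 18 with TMM over all peaks and 3 to 7 with 1 library left out.

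The peak-poor share passed its adjusted exact permutation test with a limit of 30 (6.52 percentage points), a limit of 100 (4.57), peaks with no neighbour within 1000 bases (6.06) and a radius of 50000 bases (4.74), each p = 0.0476. With 1 library left out it was 4.89 to 6.64, and it passed without old replicate 4 (adjusted exact permutation p = 0.0357). The contrast with other peaks was 0.16 to 0.20 with 1 library left out, and without a young replicate the exact permutation p was 0.0571, where 1 of 35 is the smallest possible. With a replicate block 1936 weak peaks were higher and 2252 lower, with 368 and 357 windows and 9 chromosomes. Same-numbered libraries correlated by 0.00 to 0.11 in their deviations at weak peaks, and not every one correlated best with its own number, so the numbers were not taken as pairs.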
